A study of Mus musculus with 4 samples.

Results

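Pde2a and 7 other cyclic nucleotide phosphodiesterase genes, Pde1b, Pde3b, Pde4a, Pde4b, Pde4d, Pde7a and Pde8a, were read in lymphoid-primed multipotent progenitors (LMPPs), early blood progenitors of mouse bone marrow. All probe sets whose platform gene symbol was exactly one of these 8 names were taken, which gave 23 of 45037 probe sets. The genes were selected on this contrast: Pde2a had been noticed because it was bright and read higher in both libraries labelled Lyl1-null than in the wild-type libraries. Its Lyl1-null against wild-type values, and those of the other 7 genes in the same contrast, are therefore given as a description without a test.

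The study measured 4 expression arrays, 2 of libraries labelled Lyl1-null and 2 of wild-type libraries, all from C57Bl/6 mice of 6 to 8 weeks that received no treatment. The cells were sorted as lineage-negative, c-Kit-positive, Sca-1-positive and high in Flt3. Lyl1 encodes a helix-loop-helix DNA-binding protein found in early blood cells, and the comparison asks which genes of LMPPs depend on it. The labels do not say which part of Lyl1 the null allele removes, nor whether libraries came from separate mice, so a p-value here covers the spread among these arrays, technical spread included, and no more. Levels are RMA values on the log2 scale (robust multi-array average, which corrects background, equalises arrays and summarises the probes of a probe set). The 4 arrays limit the precision of every value. Probe sets differ in how well they bind their target, so differences were read between arrays within a probe set. Levels of different probe sets were set together only to pick a gene's brightest, to apply the level filter and in sums over marker genes. Such a sum leans on its brightest probe sets.

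Cyclic AMP and cyclic GMP are second messengers made by adenylyl and guanylyl cyclases, mostly on signals from cell-surface receptors. Phosphodiesterases break them down and so set how strong and how local the signal is. Pde2a breaks down both messengers and is stimulated by cyclic GMP, Pde1b is stimulated by calcium and calmodulin, and Pde3b is inhibited by cyclic GMP. Pde4a, Pde4b, Pde4d, Pde7a and Pde8a are specific for cyclic AMP, the messenger that activates protein kinase A and the transcription factor CREB.

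Lyl1 pairs with E proteins, and such pairs bind the E-box, CANNTG. For this reason promoter windows are shown for Pde2a and Pde4b, the genes with the highest and the lowest difference among the 8. RefSeq (GRCm38.p6) gave 17 windows, from 250 bases before to 50 bases after a start, for 6 of the 8 genes. Pde3b and Pde7a were not among them. The first window is the most upstream start of Pde2a, the second the Pde2a window with the most E-boxes and the third the most upstream start of Pde4b. Capitals mark CANNTG, which reads the same on both strands.
Pde2a, chr7:101421441-101421740, plus strand: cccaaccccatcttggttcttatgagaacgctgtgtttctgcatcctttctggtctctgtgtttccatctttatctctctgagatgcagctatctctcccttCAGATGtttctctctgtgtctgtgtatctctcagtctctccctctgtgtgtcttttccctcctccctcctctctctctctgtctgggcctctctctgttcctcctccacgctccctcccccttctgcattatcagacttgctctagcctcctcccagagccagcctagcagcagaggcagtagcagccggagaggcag
Pde2a, chr7:101450270-101450569, plus strand: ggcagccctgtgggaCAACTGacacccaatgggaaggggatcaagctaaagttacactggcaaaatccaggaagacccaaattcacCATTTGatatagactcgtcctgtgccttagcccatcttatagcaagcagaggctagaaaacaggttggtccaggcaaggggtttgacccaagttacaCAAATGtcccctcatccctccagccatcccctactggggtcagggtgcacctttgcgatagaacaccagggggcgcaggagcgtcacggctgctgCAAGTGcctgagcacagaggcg
Pde4b, chr4:102421305-102421604, plus strand: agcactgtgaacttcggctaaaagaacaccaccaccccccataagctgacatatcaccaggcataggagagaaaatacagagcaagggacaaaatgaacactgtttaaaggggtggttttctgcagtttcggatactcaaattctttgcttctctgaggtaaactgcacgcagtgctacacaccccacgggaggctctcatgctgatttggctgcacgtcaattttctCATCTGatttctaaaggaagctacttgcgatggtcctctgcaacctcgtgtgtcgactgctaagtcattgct

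CANNTG was present in 15 of the 17 windows, and in 72.3% of all 32851 RefSeq windows of the same length. The first Pde2a window held 1 E-box, CAGATG, which starts 148 bases before the annotated start. It also held the motif AGATAA, which was searched on both strands and is of the type bound by GATA factors. The second held 4 E-boxes. The Pde4b window held CATCTG, the same E-box read on the other strand. CAGATG, searched on both strands and contained within CANNTG, was in 6 of the 17 windows and in 17.2% of all windows. TGACG, the half-site of the cyclic AMP response element, was in 4 of the 17 and in 20.8% of all windows. AGATAA was in 3 of the 17 and in 11.2% of all windows. These matches describe letters, and no binding was measured.

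The labels were read before the 8 genes. Lyl1 stood at 5.14 and 10.32 in the replicate 1 and replicate 2 libraries labelled Lyl1-null, against 12.34 and 12.29 in wild type. The library labelled Lyl1-null replicate 2 thus held 25.1% of the wild-type mean, which goes against its label. It also read 14.26 for Xist, the X-inactivation RNA, against 5.81 to 6.30 in the other 3 libraries. The Y-linked gene Eif2s3y read 8.44 there, or 30.9% of the wild-type mean, against 10.07 to 10.15 in the other 3. Between it and each other library, 518 to 859 of 11196 tested genes differed at least 2-fold, against 42 to 128 among the other 3. Its values were also less spread out (SD 2.34 over probe sets, against 2.44 to 2.48), with dim probe sets higher and bright ones lower. The sorting markers Flt3 and Kit and the progenitor marker Cd34 were above the level filter of 5.69 in all 4 libraries. All 3 lay below both wild-type libraries in both libraries labelled Lyl1-null, with differences of −0.49, −0.90 and −0.56. Their summed linear level was 10480.7 and 6835.0 in the replicate 1 and replicate 2 libraries labelled Lyl1-null, against 11871.5 and 13161.0 in wild type, and its part in the results was not tested. A difference given below is over both libraries labelled Lyl1-null unless a replicate is named.

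Pde2a was higher in both libraries labelled Lyl1-null at all 3 of its probe sets. The brightest, 1447707_s_at, read 13.07 and 13.40 in the libraries labelled Lyl1-null, against 11.76 and 11.49 in wild type. Its difference was 1.61 (SE 0.20), or 3.05-fold, with 1.44 in replicate 1 and 1.77 in replicate 2. The spread was 0.23 within the libraries labelled Lyl1-null and 0.19 within wild type (SD, n = 2 each). The groups did not overlap, but Pde2a had been noticed for reading higher in both libraries labelled Lyl1-null. Nothing is therefore read from the gap between the groups.

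The other Pde2a probe sets differed in the same direction by less. Probe set 1447708_x_at read 8.91 and 9.36 in the libraries labelled Lyl1-null, against 8.38 and 8.36 in wild type, a difference of 0.76 (SE 0.20) or 1.70-fold. Probe set 1452202_at read 6.39 and 6.19 in the libraries labelled Lyl1-null, against 5.61 and 5.65 in wild type, a difference of 0.66 (SE 0.16) or 1.58-fold. Both of its wild-type values lay below the level filter of 5.69. Its mean passed only through the libraries labelled Lyl1-null. On this array the suffix _s_at marks probes that can match more than one transcript and _x_at probes that can also match unrelated sequence. The platform annotation listed a source accession for 1452202_at but not for the other 2. The size of the Pde2a difference thus rested on the probe set read, from 1.58-fold to 3.05-fold. Its direction was the same in all 3, but Pde2a had been noticed for this direction, so nothing is read from it. With the mean of its probe sets the Pde2a difference was 1.01.

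**Figure D1:**
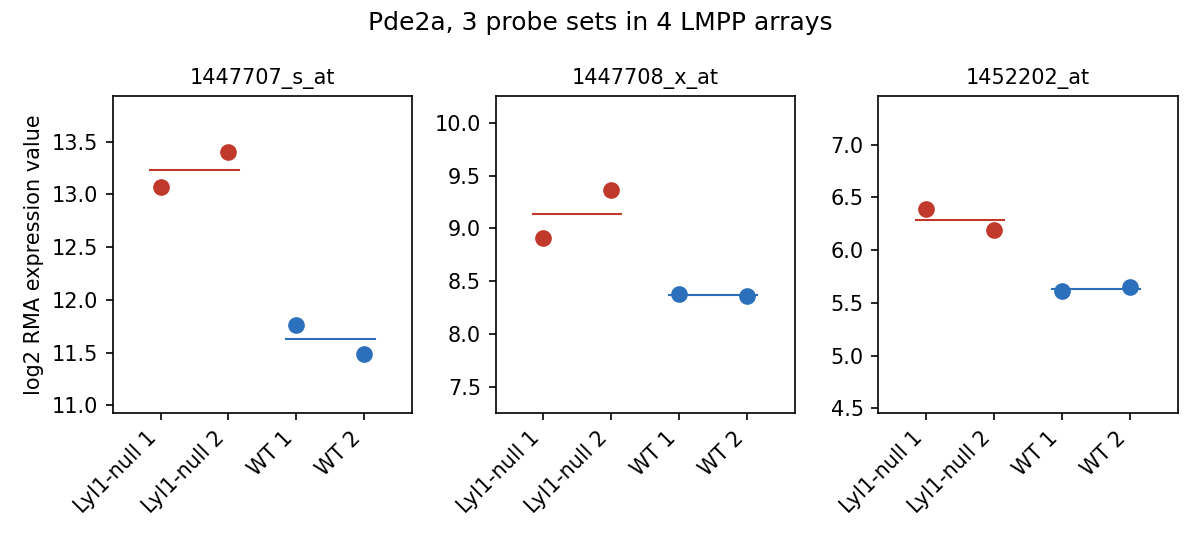
Log2 RMA expression value of the 3 Pde2a probe sets in each array, libraries labelled Lyl1-null (red) left of wild type (WT, blue), with points for arrays and lines for group means. Each panel spans the same number of log2 units around its own mean, and the libraries labelled Lyl1-null lie above wild type in all 3, by 1.61, 0.76 and 0.66.

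By size, Pde2a (1447707_s_at) held rank 12 of 11196 genes among positive differences and rank 25 by size in either direction. At least 2-fold differences with no overlap between groups, higher in the libraries labelled Lyl1-null, were found in 0.313% of genes tested, lower ones in 0.607%, and 1.11% differed at least 2-fold in either direction. Since the genes were chosen with this contrast in view, nothing is read from this rank.

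Neutrophil granule genes were high in the same arrays as Pde2a. All 4 measured above the filter, Ngp, Camp, Ltf and S100a8, had positive differences (median 1.74), and S100a9 and Lcn2 were below it. Ltf read 4.93 and 5.10 in wild type, below the filter. Its mean passed only through the libraries labelled Lyl1-null (6.77 and 6.19), so its place in this count rests on those values. The summed linear level of the 6 genes was 1826.5 and 1493.9 in the libraries labelled Lyl1-null, against 589.5 and 409.8 in wild type. Their part in the Pde2a result was not tested. The primary granule genes Mpo, Elane, Prtn3 and Ctsg had negative differences, and Mpo (−1.01) and Ctsg (−0.53) did not overlap between the groups. Their summed level was 11870.9 and 8617.7 in the libraries labelled Lyl1-null, against 13388.0 and 13916.8 in wild type. In bulk samples, a change in the share of cells of a type and a change in RNA per cell cannot be told apart. Endothelium and stroma markers summed to 323.2 and 446.3 in the libraries labelled Lyl1-null, against 303.1 and 507.3 in wild type, with Cdh5, Tek and Cxcl12 below the filter. T and NK cell markers summed to 3547.2 and 3112.6 in the libraries labelled Lyl1-null, against 2772.7 and 2652.3 in wild type. Most of that sum was Nkg7, at 11.66 and 11.42 in the libraries labelled Lyl1-null, against 11.24 and 11.18 in wild type, while Klrd1 had a difference of −0.76 (SE 0.16). The median difference was −0.26 over monocyte, macrophage and dendritic markers, 0.16 over B cell, −0.12 over megakaryocyte and erythroid, and −0.43 over mast cell and basophil markers.

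The genes most like Pde2a were sought among all tested genes by the Euclidean distance over the 4 arrays between log2 values centred on each gene's own mean. The nearest 5 were Sh3gl3 (distance 0.33, difference 1.34), S100a8 (0.42 and 1.64), Ciapin1 (0.45 and 1.30), Chil3 (0.48 and 1.30) and Plekha7 (0.50 and 1.22). Sh3gl3 read 5.26 and 5.15 in wild type, below the filter of 5.69. Its mean passed only through the libraries labelled Lyl1-null (6.26 and 6.83), so its place here rests on those values. S100a8 encodes a calcium-binding protein of neutrophils, and Chil3 a chitinase-like protein of myeloid cells. Sh3gl3, Ciapin1 and Plekha7 were in none of the marker lists, and neither was Chil3. Likeness over 4 arrays describes these arrays only.

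**Figure D2:**
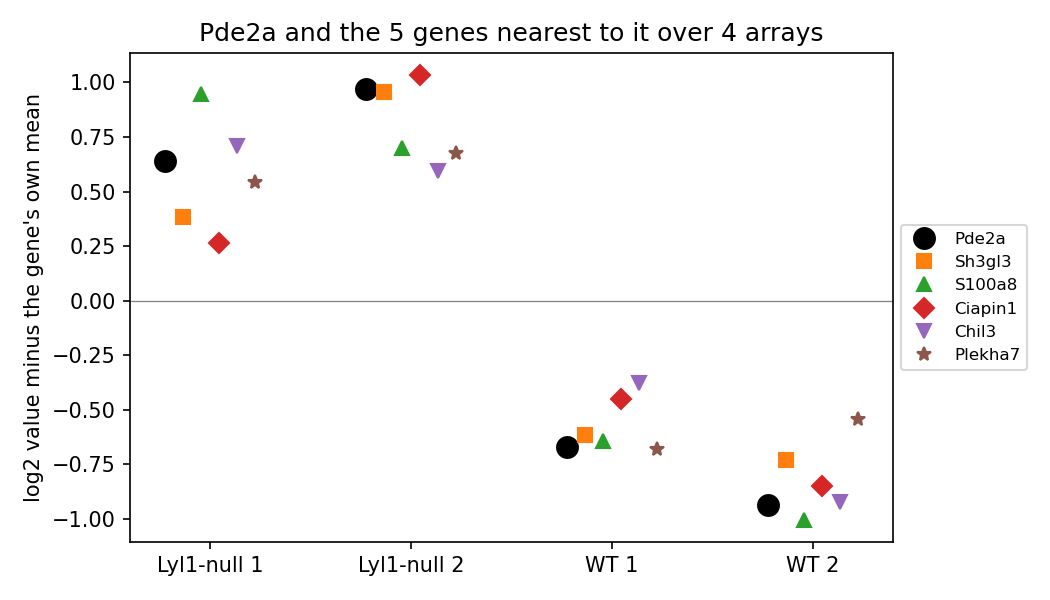
Log2 value minus the gene's own mean in each of the 4 arrays for Pde2a (black circles) and the 5 nearest genes, libraries labelled Lyl1-null at the left and wild type (WT) at the right. All 6 genes lie above their own mean in both libraries labelled Lyl1-null and below it in both wild-type libraries.

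Pde4b, a cyclic AMP-specific enzyme of immune cells, had the lowest difference among the 8 genes. Its brightest probe set, 1442700_at, read 10.26 and 9.04 in the replicate 1 and replicate 2 libraries labelled Lyl1-null, against 10.51 and 10.52 in wild type. The difference was −0.87 (SE 0.40), made up of −0.26 in replicate 1 and −1.48 in replicate 2. Probe set 1422474_at read 9.56 and 9.39 in the libraries labelled Lyl1-null, against 9.80 and 9.69 in wild type, a difference of −0.27 (SE 0.16). Both probe sets lay below wild type in both libraries, and most of the first difference came from the library whose Lyl1 value goes against its label.

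The third Pde4b probe set above the filter, 1422473_at, overlapped between the groups. It read 6.17 and 5.78 in the libraries labelled Lyl1-null, against 5.79 and 6.85 in wild type, so that the wild-type libraries differed from each other by more than the groups did. The other 3 lay below the filter, with differences from −0.07 to 0.26. With the mean of its probe sets Pde4b had a difference of −0.17.

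Pde7a, a cyclic AMP-specific enzyme of lymphocytes, had 7 probe sets, which did not move as one. Its brightest, 1458218_s_at, read 9.39 and 9.73 in the libraries labelled Lyl1-null, against 9.73 and 9.40 in wild type, and its difference of −0.00064 (SE 0.21) hides a spread within each group. Probe set 1438041_at read 8.90 and 8.58 in the libraries labelled Lyl1-null, against 9.23 and 9.41 in wild type, a difference of −0.58 (SE 0.18). Of the 7, 4 lay below wild type in both libraries labelled Lyl1-null, 3 overlapped and 6 had a negative difference. Probe sets 1423314_s_at and 1450933_at had differences of −0.24 and −0.32. The fourth, 1451839_a_at, had −0.498 and lay below the filter. Probe set 1423313_at differed between the libraries labelled Lyl1-null themselves, with −0.28 in replicate 1 and 0.32 in replicate 2.

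Pde1b, with 1 probe set (1449420_at), read 6.70 and 6.05 in the libraries labelled Lyl1-null, against 6.59 and 6.86 in wild type. Its difference was −0.35 (SE 0.26), with −0.03 in replicate 1 and −0.68 in replicate 2, and the groups overlapped. Pde3b, also with 1 probe set (1433694_at), averaged 8.99 ± 0.01 in the libraries labelled Lyl1-null, which lay −0.04 and −0.05 from the wild-type mean, against 9.04 ± 0.16 in wild type (SD, n = 2 each), where the libraries read 8.92 and 9.15. Its difference of −0.05 (SE 0.17) was smaller than the gap of 0.23 between the wild-type libraries.

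Pde4d, a close relative of Pde4b, read 7.27 and 7.29 at 1435280_at in the libraries labelled Lyl1-null, against 7.26 and 7.39 in wild type, a difference of −0.05 (SE 0.16). Its second probe set, 1459311_at, lay below the filter and had a difference of 0.24 without overlap. Quantile normalization turned the signs of Pde3b (0.08), Pde4d (0.09) and Pde7a (0.11). Pde8a, a high-affinity cyclic AMP enzyme, read 8.01 and 8.03 at 1418406_at in the libraries labelled Lyl1-null, against 7.94 and 7.91 in wild type. The Pde8a groups did not overlap, yet the difference was 0.09 (SE 0.15). A second Pde8a probe set, 1418407_at, lay below the filter and had a difference of 0.53, also without overlap. Pde4a, with 1 probe set (1421535_a_at), was below the filter in every library, at 5.54 and 5.52 in the libraries labelled Lyl1-null, against 5.40 and 5.33 in wild type.

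**Figure D3:**
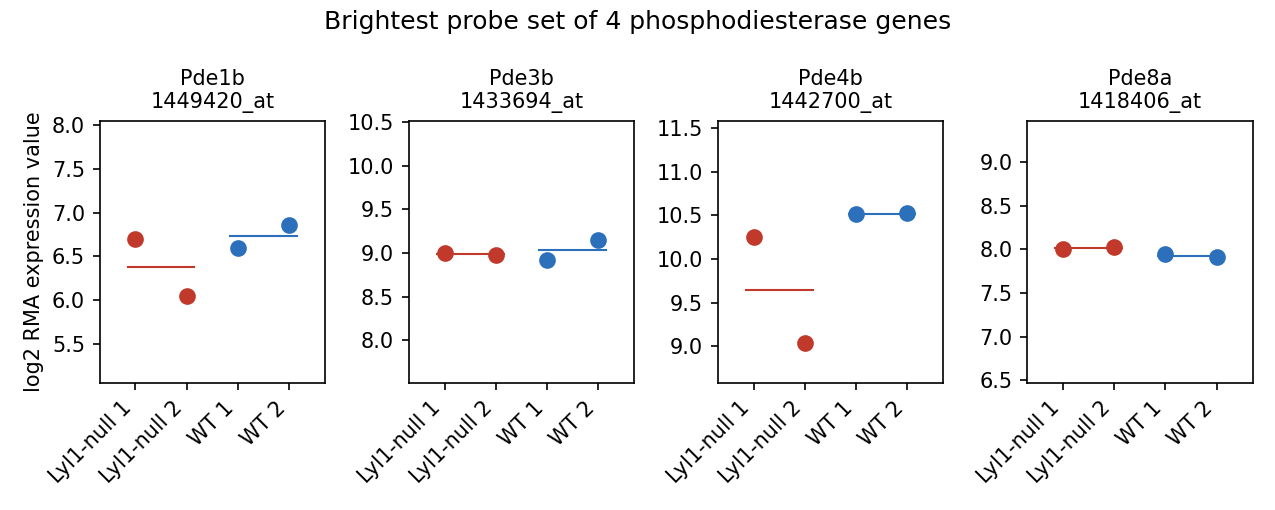
Log2 RMA expression value of the brightest probe set of Pde1b, Pde3b, Pde4b and Pde8a in each array, libraries labelled Lyl1-null (red) left of wild type (WT, blue), with points for arrays and lines for group means. Pde4b and Pde1b are lower in the library labelled Lyl1-null replicate 2, at −1.48 and −0.68 relative to the wild-type mean, while Pde3b and Pde8a stay within 0.10 of it.

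Over all 23 probe sets, 10 had a positive and 13 a negative difference, from −0.87 to 1.61. Both libraries labelled Lyl1-null lay above both wild-type libraries in 9 probe sets, including all 3 of Pde2a, and below them in 6. The same held for 27.4% (above) and 16.9% (below) of all 34945 probe sets with 1 gene symbol. The 23 are not independent, since several read the same gene. Of the 9 probe sets above, 5 were below the filter. These 5 lay above the wild-type mean by 0.17 to 0.44 in replicate 1 and by 0.13 to 0.63 in replicate 2. Dim probe sets read higher in general in the libraries labelled Lyl1-null, with a lower quartile of 4.23 and 4.39, against 4.17 and 4.17 in wild type. Among the 16 probe sets above the filter, 5 differences were positive and 11 negative, with a median of −0.14. The positive ones include Pde2a probe set 1452202_at, which passed the filter only through the libraries labelled Lyl1-null. Over the brightest probe sets, all 8 genes included, the median was −0.02, against −0.05 for all genes tested.

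**Figure D4:**
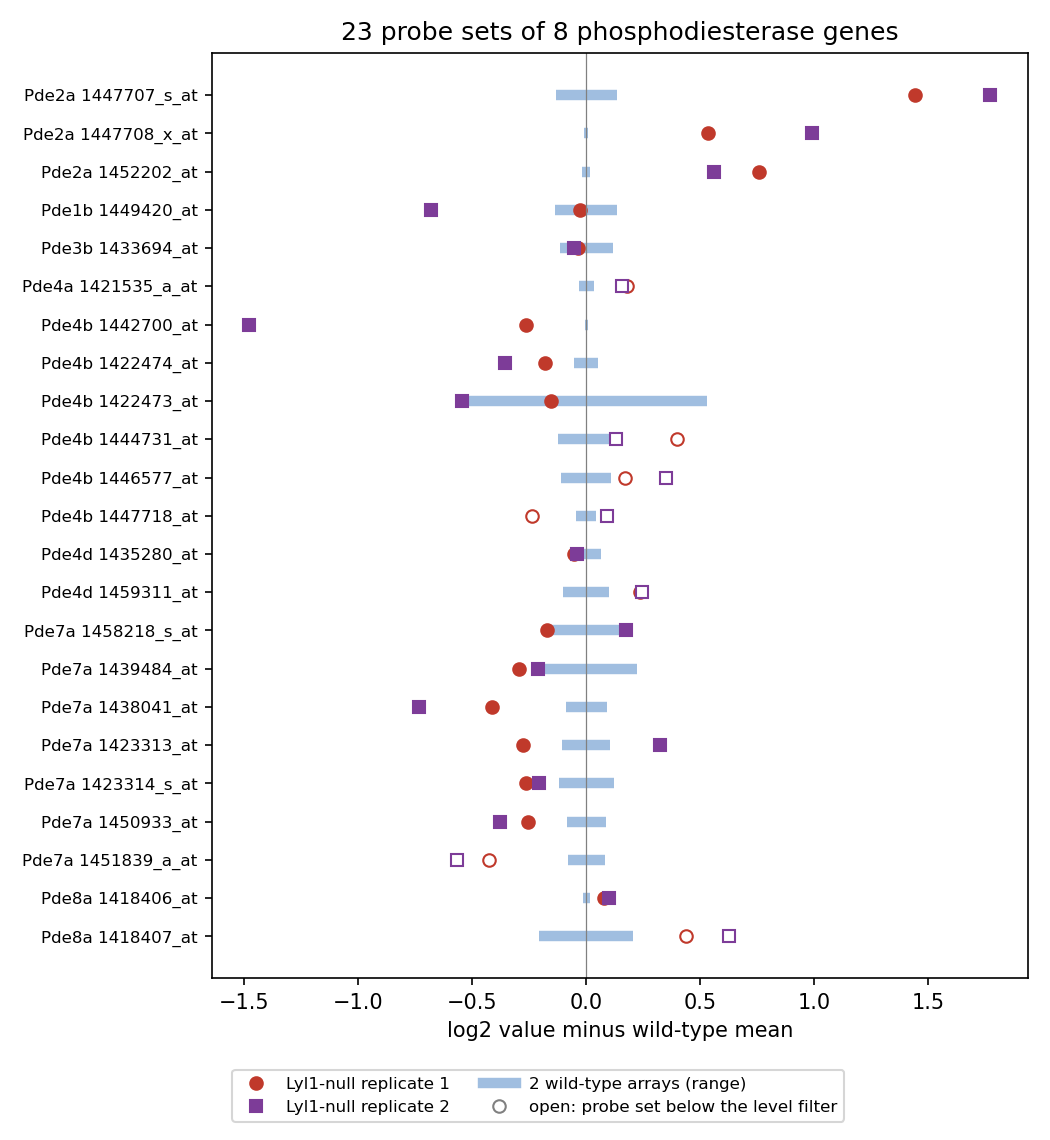
Log2 value minus the wild-type mean for the 23 probe sets, in the libraries labelled Lyl1-null replicate 1 (circles) and replicate 2 (squares), with blue bars for the range of the 2 wild-type libraries. Open symbols mark probe sets whose mean over the 4 arrays is below the filter of 5.69, and the 3 Pde2a probe sets stand to the right of wild type in both libraries.

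The enzymes that make and read cyclic nucleotides were taken from 7 lists, which held 61 genes above the filter. In the limma fit over all genes, 0 of the 61 passed (adjusted p of 0.05), as did 0.00893% of all genes. Of the 61, 22 differences were positive and 39 negative, where 4823 and 6373 of all 11196 genes tested were. The median of the 61 was −0.10, against −0.05 over all genes tested. At an unadjusted p under 0.05 there were 12, against 6.84% of all genes. The libraries labelled Lyl1-null lay above wild type without overlap in 10 of them and below it in 20, where 18.7% and 24% of all genes tested did the same. Pde11a, Akap3 and Adcy2, all with positive differences, had both wild-type values below the filter. They passed it only through the libraries labelled Lyl1-null, so the positive count rests in part on the filter. Pde11a and Akap3 were also among the 10. Leaving out either library labelled Lyl1-null left 1 in that group, so that the spread came from the wild-type pair alone and the lone library was assumed to vary like it. Without the library labelled Lyl1-null replicate 1, which left the one whose Lyl1 value goes against its label, 13 of the 61 passed, 3 higher and 10 lower, where 14.8% of all genes did, 3.94% higher and 10.8% lower. Without the one labelled replicate 2, 0 passed, where 0.196% of all genes did.

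Among other phosphodiesterases, 5 of 15 on the array were above the filter, and Pde7b differed most. Pde7b, the closest relative of Pde7a, read 5.94 and 6.22 in the libraries labelled Lyl1-null, against 7.57 and 7.19 in wild type. Its difference was −1.29 (SE 0.21, limma adjusted p = 0.374), of similar size in both libraries (−1.43 and −1.15), and its other 2 probe sets were below the filter. Pde11a and Pde10a, enzymes that break down both messengers, had differences of 0.46 (SE 0.18) and 0.44 (SE 0.25), each with a limma adjusted p of 0.644. Pde11a had 0.32 in replicate 1 and 0.60 in replicate 2, and Pde10a 0.11 and 0.78. Pde11a read 5.62 and 5.64 in wild type, below the filter. Its mean passed only through the libraries labelled Lyl1-null (5.95 and 6.24). Pde7b (−1.15) and Pde10a (0.78) were among the 13 that passed without the library labelled Lyl1-null replicate 1.

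Among cyclases, 7 of 18 were above the filter. Adcy7, an adenylyl cyclase of blood cells, read 12.61 and 12.62 in the libraries labelled Lyl1-null, against 13.72 and 13.72 in wild type. The groups were tight and did not overlap, with a difference of −1.10 (SE 0.15, limma adjusted p = 0.251). Other Adcy7 probe sets above the filter had differences of −0.46 and −0.01, and −0.09 and 0.47 in the library labelled replicate 1 alone. Adcy9 had a difference of −0.56 (SE 0.16, adjusted p = 0.644), with −0.52 in replicate 1 and −0.61 in replicate 2. Its 3 other probe sets above the filter had −0.07, −0.20 and −0.26 in replicate 1, against −2.72, −0.73 and −1.83 in replicate 2, so that most of their differences came from the library whose Lyl1 value goes against its label. Adcy5 had 0.40 (SE 0.18, adjusted p = 0.644).

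Receptors that raise cyclic AMP through the G protein Gs were represented by Ptger2, the prostaglandin E2 receptor EP2. It read 8.06 and 7.36 in the libraries labelled Lyl1-null, against 9.16 and 9.07 in wild type. Its difference was −1.41 (SE 0.26, limma adjusted p = 0.509), with −1.05 in replicate 1 and −1.76 in replicate 2. The prostacyclin receptor Ptgir had −0.46 (−0.32 in replicate 1 and −0.60 in replicate 2) and Calcrl −0.24 (−0.04 and −0.44), while Ptger4, the prostaglandin receptor EP4, had 0.02 (SE 0.17). Gnas, which encodes the Gs alpha subunit, had −0.16 (SE 0.18), all of it in replicate 2 (−0.33). Of the 9 genes of this list above the filter, 6 were negative.

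Effector genes went both ways, with 7 of 13 positive. The protein kinase A regulatory subunit genes Prkar1b and Prkar1a had differences of 0.53 and 0.35, and Prkar2b −0.38. In replicate 1 they were 0.38, 0.19 and −0.13, and in replicate 2 they were 0.67, 0.52 and −0.62. A second Prkar1a probe set above the filter read the other way, with −0.07 in replicate 1 and −0.76 in replicate 2. Further Prkar2b probe sets above it had differences of −0.01 and −0.21. The catalytic subunit genes Prkacb and Prkaca had −0.54 and 0.05, and a second Prkacb probe set above the filter had −0.02. Prkg1, a cyclic GMP-dependent kinase, had −0.49, and Rapgef3, the cyclic AMP-activated exchange factor Epac1, had 0.48. Prkacb, Prkg1 and Rapgef3 had −0.34, −0.31 and 0.30 in replicate 1, and −0.75, −0.66 and 0.65 in replicate 2. All of these had a limma adjusted p of 0.644, except Prkaca (0.923). Further Rapgef3 probe sets above the filter had differences of 0.55, 0.34 and 0.01. Among anchors and exporters, 8 of 10 were negative, with Akap9 at −0.63, Akap7 at −0.45, Akap11 at −0.33 and Akap13 at −0.15. Akap9 had −0.27 in replicate 1 and −0.99 in replicate 2, and the other 3 differed less between the libraries. Further Akap9 probe sets above the filter had −0.77, −0.65 and 0.17, and those of Akap13 −0.37, −0.47 and −0.61.

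CREB itself showed little difference, with Creb1 at 0.13 (SE 0.20) and Crem, a related factor, at 0.06 (SE 0.26). A second Crem probe set above the filter had −0.37. The coactivator gene Ep300 had −0.21, Crtc1 also −0.21 and Crebbp 0.45, the last with −0.23 and 1.13 in the replicate 1 and replicate 2 libraries labelled Lyl1-null. A second Crtc1 probe set above the filter read the other way, with 0.40. Other Crebbp probe sets above it had 0.39 and −0.61. Of 10 genes known as CREB targets, 0 passed in limma and 3 had an unadjusted p under 0.05, against 0.00893% and 6.84% of all genes tested. A negative difference was found in 9 of the 10, and in 6373 of all 11196 genes tested. Below wild type without overlap lay 4 of the 10, and 24% of all genes tested. The median of the 10 was −0.63, against −0.05 over all genes tested, with −0.13 in replicate 1 and −0.71 in replicate 2 of the libraries labelled Lyl1-null. In replicate 1, Nr4a1 (−0.02), Junb (−0.01) and Sik1 (−0.01) were near the wild-type mean and Nr4a2 (0.33) was above it. Nr4a2 was negative at its brightest probe set only, and its 4 other probe sets above the filter had differences from 0.08 to 0.28. Fosb was negative only through wild-type replicate 1 (7.80). Wild-type replicate 2 (5.36) lay below both libraries labelled Lyl1-null (5.80 and 5.64).

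The clock gene Per1 read 10.17 and 10.35 in the libraries labelled Lyl1-null, against 11.27 and 10.76 in wild type (−0.75, SE 0.22, limma adjusted p = 0.644). The immediate-early factor gene Fos read 10.44 and 9.53 in the libraries labelled Lyl1-null, against 12.58 and 10.86 in wild type. Its difference was −1.74 (SE 0.60, adjusted p = 0.644), and the wild-type libraries differed from each other by a similar amount. The phosphatase gene Dusp1 read 8.04 and 6.95 in the libraries labelled Lyl1-null, against 9.28 and 8.26 in wild type, so its wild-type libraries also lay apart. Its difference was −1.27 (SE 0.47, adjusted p = 0.644), with −0.73 in replicate 1 and −1.82 in replicate 2.

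**Figure D5:**
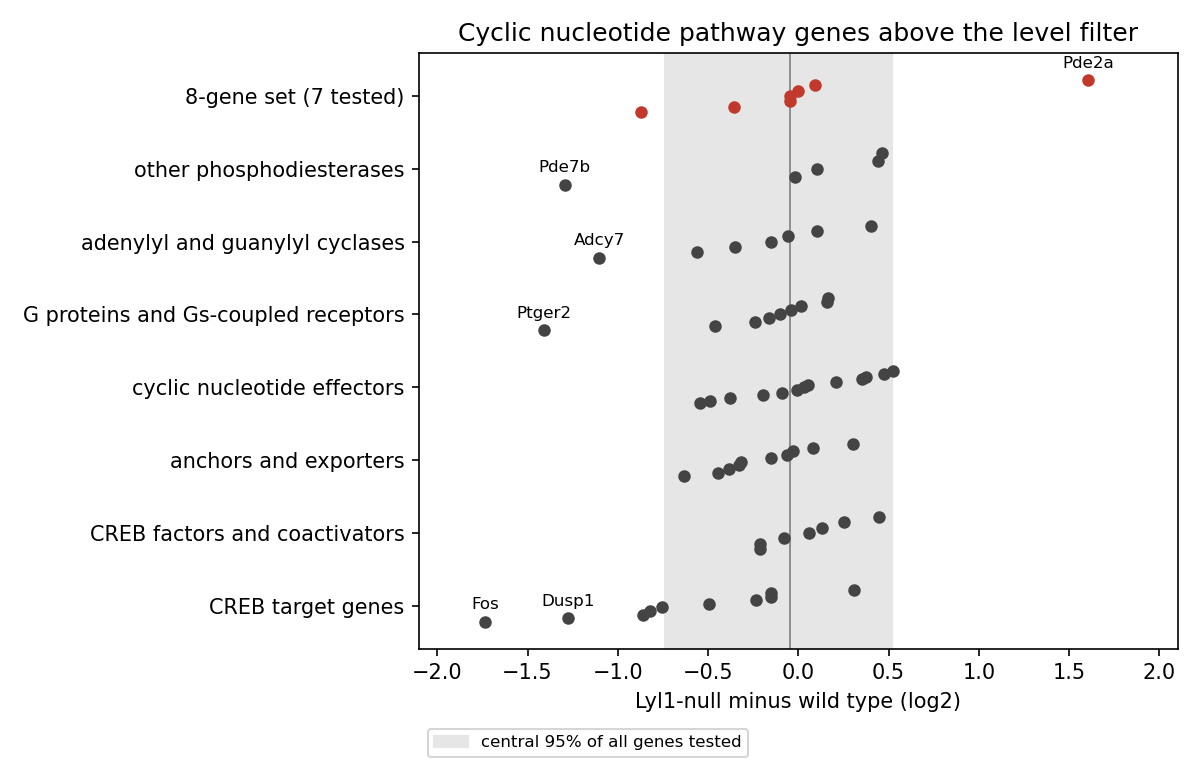
Difference Lyl1-null minus wild type (log2) for each gene above the filter in the 8-gene set (red) and the 7 other lists (grey), with the central 95% of all genes tested shaded (−0.74 to 0.52) and their median as a line. Names are given where the difference is at least 2-fold, with Pde2a at 1.61 on the right and Pde7b, Adcy7, Ptger2, Fos and Dusp1 on the left.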

How the data were processed

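Values were the deposited log2 expression values made by the authors with RMA, per the submitters' processing notes, 1 column per array. Neither the version of RMA nor the set of arrays normalized together is given in the sources used here. The values were used without another normalization. Of 45037 probe sets, 34945 carried 1 symbol in the platform annotation, 932 several and 9160 none, and 34741 matched a RefSeq gene by identifier. Each gene was read from its brightest probe set, and 11196 of 18193 genes with a mean of at least 5.69 (the middle value over all probe sets) were tested. Genotypes were compared in limma 3.58.1 under R 4.3.3, two-sided, with Benjamini-Hochberg adjustment over all genes. The SE of a probe set that is not its gene's brightest came from a fit over all probe sets.

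The members and lists were chosen with earlier results of these data known. Genes named were the 8 members, Lyl1, of each pathway list the 3 with the smallest p (none passed), Adcy7, Prkaca, Prkacb, Prkar1a, Prkar2b, Creb1, Crem, Rapgef3, Gnas and Akap13, and the 5 genes nearest to Pde2a. Ptger4, Nr4a1, Nr4a2, Junb, Sik1, Fosb, Adcy2, Akap3, Xist, Eif2s3y and the marker genes were named outside this rule, after their values were seen. The marker lists are given as counts and sums. Of 169 listed genes, those with no probe set of their own are not analysed here. The test was tested on simulated data. Alternatives were the filter, the probe sets used, normalization, a trended prior, a replicate block and each library left out.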

Additional observations from a re-analysis of the deposited data

How the results depend on the processing

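Over all genes, 1 passed, and the count was 4 with no filter, 2 with all probe sets, 0 with the mean of probe sets (736 at an unadjusted p under 0.05), 2 with quantile normalization, 2 with median centring and 4 with a trended prior. Leaving out 1 library gave 1 to 1652, the latter without the one labelled Lyl1-null replicate 1, and 22 without the one labelled replicate 2. In both, the spread came from the wild-type pair alone. Of the 61 pathway genes, 0 to 13 passed when 1 library was left out, and 0 in the other alternatives.

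Pde2a was chosen as higher in both libraries labelled Lyl1-null, and its groups did not overlap at any of its probe sets. Leaving out a library or averaging probe sets could therefore not turn its sign. The filters, the trended prior and the replicate block left its difference unchanged, so nothing is read from its sign staying positive. Over the 13 alternatives Pde2a ranged from 0.76 (the median over all its probe sets) to 1.77, and was 1.01 with the mean of probe sets. Without the library labelled Lyl1-null replicate 2 it was 1.44, and without the one labelled replicate 1 it was 1.77. Pde4b ranged from −1.48 to −0.17 and Pde1b from −0.68 to −0.03. Pde3b, Pde4d and Pde7a changed sign in 2, 4 and 3 alternatives.

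The replicate number shared by the titles, used as a replicate block, gave 3 genes over all and 0 pathway genes. Deviations of same-numbered libraries had a correlation of −0.41, and a crossed pairing, added after the data had been seen, gave 1 gene. With 2 libraries per group an exact permutation test of a single gene cannot go below p = 0.3333. The number of arrays, and dim probe sets near background, limit what could be detected.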
